A study of Mus musculus with 18 samples.

Results

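The 9 genes described here set the pace of the first gap phase of the cell cycle: the D-type cyclins Ccnd1, Ccnd2 and Ccnd3, their kinases Cdk4 and Cdk6, and the inhibitors Cdkn1a, Cdkn1b, Cdkn2c and Cdkn2d. They were chosen by name for their role and not by a measured value, though with earlier results of these data known. All 9 were found among the 55284 named genes of the count table. All 9 also passed the filter on low counts, which 33795 genes passed. RNA sequencing was done on 18 libraries of mouse CD25-CD4+ T cells from spleen and lymph node, strain C57BL/6, in 6 groups of 3. Marrow of wild-type mice (WT) and a smaller share of marrow of mice with germline deletion of Nr4a1 and Nr4a3 (Nr4a1-/- Nr4a3-/-, called DKO) had been mixed and given to irradiated BoyJ hosts, so that WT and DKO cells matured in the same animal. Neither the labels nor the methods used here state the ages of the animals sequenced. Each of the 3 hosts, numbered chimera 10, 11 and 12, gave 1 library to every group. Naive cells were sorted as CD62Lhi CD44lo FR4lo CD73lo and anergic cells as CD62Llo CD44hi FR4hi CD73hi, and both were lysed directly. Stimulated cells were sorted naive cells kept for 3 h on plate-bound anti-CD3 (8 ug/ml) with anti-CD28 (2 ug/ml). NR4A1 and NR4A3 are orphan nuclear receptors induced by antigen receptor signals, and both deletions were present throughout development, also in cells other than T cells.

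A resting T cell stays out of the cycle until antigen and costimulation raise D-type cyclins, which activate CDK4 and CDK6. The active kinases phosphorylate the retinoblastoma protein and its relatives and so free E2F factors, which switch on cyclin E and the genes of DNA replication. INK4 inhibitors such as p18 (Cdkn2c) and p19 (Cdkn2d) bind CDK4 and CDK6 alone, whereas CIP/KIP inhibitors such as p21 (Cdkn1a) and p27 (Cdkn1b) bind cyclin-CDK complexes and chiefly block CDK2. Anergic T cells are cells that met antigen without full costimulation and divide poorly when they meet it again.

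Total counts were between 16122020 and 39752234 per library (median 28883067). A pair of libraries of chimera 12 stood apart, those of WT naive and of WT stimulated cells: receptor genes of smell (olfactory and vomeronasal), foreign to T cells, took 807 and 572 CPM (counts scaled to library size) there against 1417 to 3253 in the other 16 libraries, and the scaling factor of the stimulated library was 0.550 against 0.739 to 1.321 elsewhere. The summed level of 4 CD4 T cell markers was 2353 to 4996 TPM (a transcript level scaled for length and depth) in every library, and B cell, CD8 and NK cell, and myeloid marker lists summed to at most 42.7, 101 and 31.3 TPM. A list of 5 regulatory T cell markers, none of them at 0, summed to 802 to 1076 TPM in WT anergic cells and to 90.1 to 98.4 TPM in DKO anergic cells, with Foxp3 at 492 ± 43.2 and 19.7 ± 1.59 TPM (SD, n = 3 each). Whole-gene reads of the deleted genes remained in DKO libraries: Nr4a1 had means of 83.8 and 91.4 TPM in WT and DKO naive, 4386 and 6519 TPM in stimulated, and 184 and 166 TPM in anergic cells, and Nr4a3 was at 314 and 504 TPM in stimulated cells. Such reads include transcript outside the removed parts and so do not check the genotype labels.

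To place the genes in the genome, the 250 bases before the RefSeq start sites were read from build GRCm38.p6 for the 7 genes with an entry, 10 stretches in all, and searched on both strands for 7 motifs. The stretches of Ccnd3, Cdk4 and Cdkn1a are shown because they differ most in what was found and hardly overlap exons; capitals mark the matches.
Ccnd3, chr17:47504801-47505050, plus strand: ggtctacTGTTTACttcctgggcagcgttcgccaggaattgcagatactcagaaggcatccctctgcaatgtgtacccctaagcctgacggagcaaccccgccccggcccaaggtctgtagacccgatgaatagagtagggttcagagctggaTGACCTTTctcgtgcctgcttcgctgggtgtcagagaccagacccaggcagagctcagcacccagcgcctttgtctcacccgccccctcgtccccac
Cdk4, chr10:127063285-127063534, plus strand: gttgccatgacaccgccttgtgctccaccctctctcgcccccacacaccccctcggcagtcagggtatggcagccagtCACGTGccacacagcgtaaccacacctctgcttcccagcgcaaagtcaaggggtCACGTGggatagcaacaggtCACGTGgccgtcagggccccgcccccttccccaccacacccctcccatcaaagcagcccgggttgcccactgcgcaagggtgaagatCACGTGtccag
Cdkn1a, first start, chr17:29090729-29090978, plus strand: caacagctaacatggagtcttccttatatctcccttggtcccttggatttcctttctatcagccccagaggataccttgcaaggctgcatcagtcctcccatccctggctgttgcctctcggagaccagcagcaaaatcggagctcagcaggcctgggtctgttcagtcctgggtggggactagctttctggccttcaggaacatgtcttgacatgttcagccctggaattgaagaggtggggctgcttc
In the Ccnd3 stretch the first capitals are a forkhead (FOXO) motif, TGTTTAC, which 3.17% of 32851 such stretches in the genome hold. The second capitals are the reverse complement of the NR4A response element AAAGGTCA, at positions -97 to -90 from the start, which 1.34% of all stretches hold. The Cdk4 stretch holds 4 E-boxes (CACGTG, the motif of MYC and related factors), where 6.02% of all stretches hold at least 1 and 0.0213% hold at least 4. The Cdkn1a stretch matched none of the motifs, which besides these were EGR (GCGNGGGCG), AP-1 (TGANTCA), CRE (TGACGTCA) and E2F (TTTNGCGC). EGR motifs were found before Cdkn2c (2 matches) and Cdkn2d (1 match), where 4.70% of all stretches hold one, and an E-box before Cdk6. The stretch with both Cdkn2c matches lies wholly in annotated exon (250 bases) and that of Cdkn2d mostly so (198 of 250 bases). Cdkn1b and the second starts of Ccnd3, Cdkn1a and Cdkn2c had no match. A match is a run of letters and was not tested for binding.

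The 9 genes lie on 7 chromosomes as annotated (GENCODE vM21, GRCm38): Ccnd1 on chromosome 7, Ccnd2 and Cdkn1b on chromosome 6, Ccnd3 and Cdkn1a on chromosome 17, Cdk4 on chromosome 10, Cdk6 on chromosome 5, Cdkn2c on chromosome 4 and Cdkn2d on chromosome 9. Exons of Ccnd1, Ccnd2, Ccnd3, Cdk4, Cdk6 and Cdkn1a overlap an exon of a gene on the other strand (Bysl for Ccnd3, Tspan31 for Cdk4), and the sources used here do not state whether counting used strand, so reads of such pairs cannot be told apart. Cdkn2c lies on chromosome 4, as does Nr4a3.

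Among the D-type cyclins, Ccnd2 and Ccnd3 made up nearly all of the transcript and Ccnd1 was close to the limit of detection. Ccnd1, the cyclin D of many non-lymphoid cells, was between 0.0563 and 0.854 TPM over the 18 libraries, from 2 to 32 counts, and was called in no comparison. Its widest gap between genotypes was in naive cells, at 0.0563, 0.209 and 0.166 TPM in WT and 0.542, 0.486 and 0.756 TPM in DKO libraries. Without both WT libraries of chimera 12 that stood apart, Ccnd1 was called in stimulated and in anergic over naive WT cells. Cyclin D2, the main D cyclin of activated lymphocytes, was the most variable of the abundant pair. In WT naive cells Ccnd2 was at 173, 188 and 172 TPM in chimeras 10, 11 and 12, and in WT stimulated cells at 190, 244 and 255 TPM. In WT anergic cells it was at 94.2, 94.9 and 84.5 TPM, below every other library of the series.

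By TPM, the DKO value of Ccnd2 was the higher of the pair in each chimera and population, and only the anergic difference passed the test below. On the count scale with TMM scaling the naive difference was 0.05 (log2) and positive in 2 of 3 chimeras. Ccnd2 was at 202, 200 and 194 TPM in DKO naive cells, at 279, 337 and 353 TPM in DKO stimulated cells, and at 199, 164 and 163 TPM in DKO anergic cells. The DKO anergic libraries thus overlapped the WT naive libraries and stayed clear of the WT anergic ones. In order of mean level, WT anergic cells (91.2 ± 5.82 TPM, SD, n = 3 for this and all means below) came first, then DKO anergic (175 ± 20.8), WT naive (178 ± 9.19), DKO naive (199 ± 3.78), WT stimulated (230 ± 34.4) and DKO stimulated (323 ± 39.1). DKO anergic overlapped WT naive and DKO naive overlapped WT stimulated, while the other neighbours did not overlap. Cyclin D3, which lymphocyte precursors need to expand, went the other way on stimulation. Ccnd3 was at 110, 123 and 119 TPM in WT naive cells and at 55.2, 43.2 and 52.8 TPM in WT stimulated cells. The corresponding DKO values were 122, 128 and 112 TPM, and 50.3, 38.4 and 39.4 TPM, so stimulated libraries of both genotypes lay under all others. In anergic cells Ccnd3 was at 79.4, 102 and 93.2 TPM (WT) and at 104, 125 and 104 TPM (DKO).

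**Figure D1:**
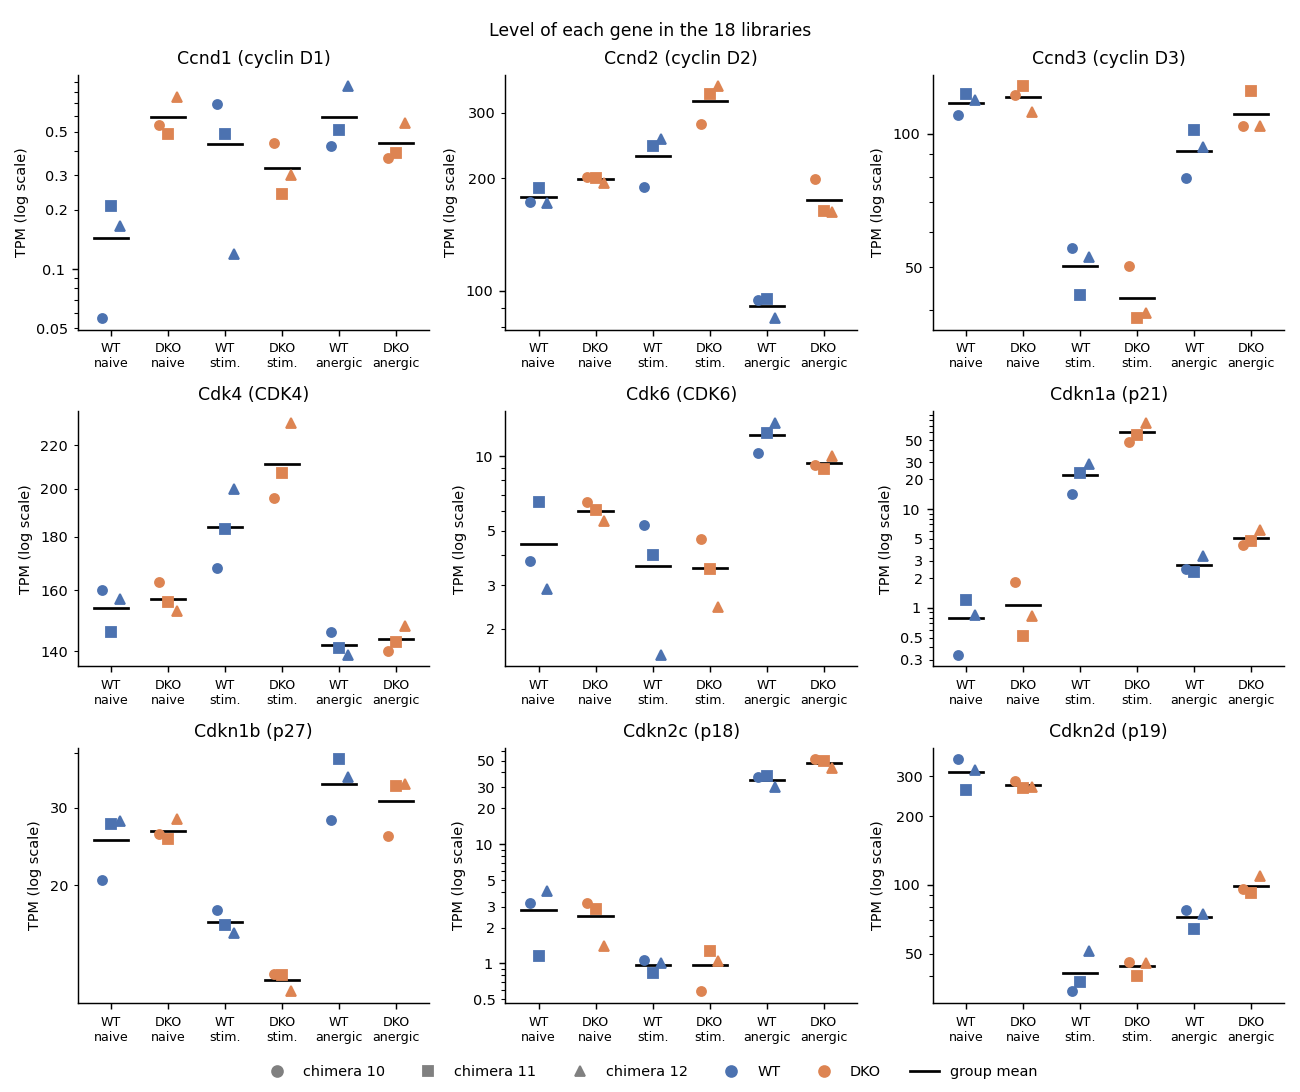
Level of each of the 9 genes in TPM (log scale, a separate range in each panel) in the 18 libraries, with 1 point per library, shapes for chimeras, colours for genotypes and bars for group means. Ccnd2 was lowest in WT anergic cells (mean 91.2 TPM), Cdkn1a highest in DKO stimulated cells (59.8 TPM), Cdkn2c highest in DKO anergic cells (48.3 TPM), and Cdkn2d high in naive cells alone (311 and 273 TPM in WT and DKO).

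Of the kinases, by TPM, Cdk4 was abundant and nearly level, and Cdk6 was scarce and higher in anergic cells. Cdk4 was between 139 and 231 TPM in all libraries, and its group means differed by at most 1.49-fold, from 142 ± 3.78 TPM in WT anergic to 211 ± 17.8 TPM in DKO stimulated cells. Cdk6 was at 3.77, 6.53 and 2.89 TPM in WT naive cells and at 10.3, 12.5 and 13.7 TPM in WT anergic cells. In DKO cells it was at 6.53, 6.07 and 5.47 TPM when naive and at 9.23, 8.87 and 10.0 TPM when anergic. Every anergic library was above every naive and stimulated library of its genotype, and stimulated cells were at 1.57 to 5.27 TPM.

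By TPM, the CIP/KIP inhibitors moved in opposite directions from naive to stimulated cells, while both had higher means in anergic than in naive cells. p21, an inhibitor best known as a target of p53, was nearly absent from naive cells and present after stimulation. Cdkn1a was at 0.336, 1.19 and 0.855 TPM in WT naive and at 1.81, 0.524 and 0.835 TPM in DKO naive cells. In stimulated cells it reached 14.1, 23.3 and 28.8 TPM (WT) and 47.4, 57.0 and 75.0 TPM (DKO), and the DKO library was above the WT library of each chimera. Anergic cells lay between, at 2.46, 2.31 and 3.35 TPM (WT) and at 4.34, 4.74 and 6.12 TPM (DKO), without overlap between genotypes. The group means of Cdkn1a spanned 75.4-fold, the widest range of the 9 genes. p27, which holds resting lymphocytes out of the cycle, was lowest after stimulation: Cdkn1b was at 25.4 ± 4.18 and 26.6 ± 1.40 TPM in WT and DKO naive cells, at 16.5 ± 1.04 and 12.2 ± 0.621 TPM in stimulated cells, and at 34.0 ± 5.38 and 31.1 ± 4.57 TPM in anergic cells.

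The INK4 inhibitors moved in opposite directions between naive and anergic cells, and Cdkn2d stayed the more abundant of the pair. p19 (Cdkn2d) was the abundant one in naive cells, at 355, 260 and 319 TPM in WT and 286, 265 and 268 TPM in DKO libraries. Stimulated libraries held 34.2, 37.7 and 51.6 TPM (WT) and 46.2, 40.1 and 45.6 TPM (DKO), and the genotypes overlapped. In anergic libraries Cdkn2d was at 78.0, 64.2 and 74.5 TPM (WT) and at 95.9, 92.6 and 110 TPM (DKO), above the stimulated and far below the naive libraries. p18 (Cdkn2c) was close to absent outside the anergic groups, between 0.584 and 4.05 TPM in the naive and stimulated libraries. It was at 36.9, 37.1 and 30.1 TPM in WT anergic and at 51.4, 49.5 and 43.9 TPM in DKO anergic cells, and the genotypes did not overlap.

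As a share of each family's summed TPM, Ccnd2 made up 60.2 ± 1.07% of D-cyclin transcript in WT naive cells, 81.6 ± 3.88% in WT stimulated and 49.8 ± 3.73% in WT anergic cells. In DKO cells the shares were 62.1 ± 1.25%, 88.1 ± 3.00% and 61.0 ± 4.58%. Cdkn2c was 0.863 ± 0.405% of the pair of INK4 transcripts in WT naive cells and 32.5 ± 3.96% in WT anergic cells, with 32.8 ± 3.64% in DKO anergic cells. Cdkn1a was 2.90 ± 1.26% of the CIP/KIP pair in WT naive cells, 56.1 ± 10.5% in WT stimulated cells and 82.6 ± 3.91% in DKO stimulated cells. The summed TPM of all 4 inhibitors was highest in naive cells (340 ± 46.1 in WT, 303 ± 12.3 in DKO), lower in anergic cells (144 ± 1.68 and 184 ± 8.63) and lowest in stimulated cells (80.7 ± 15.2 and 117 ± 14.2). The D-cyclin sum was lowest in WT anergic cells, at 183 ± 12.4 TPM, with 287 ± 18.1 TPM in DKO anergic cells.

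**Figure D2:**
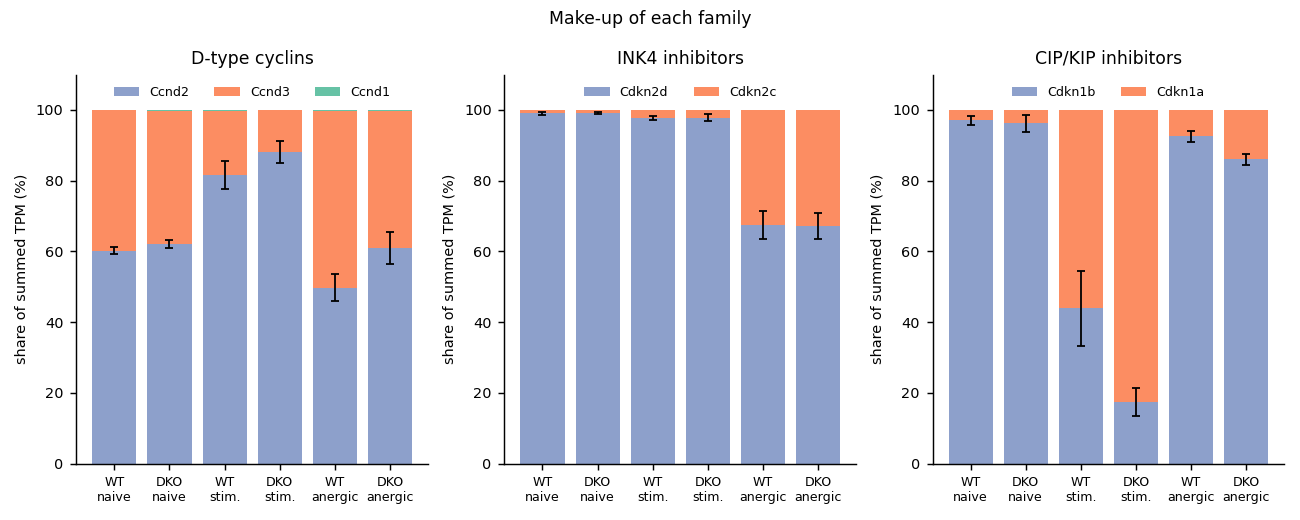
Share of each family's summed TPM, in percent, taken by each of its genes, as the mean of 3 chimeras in each of the 6 groups, with bars for 1 SD of the lower segment. Cdkn1a filled most of the CIP/KIP bar in stimulated cells (56.1% in WT, 82.6% in DKO), and Cdkn2c filled 32.5% and 32.8% of the INK4 bar in anergic cells against 0.863% and 0.902% in naive cells.

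The first comparison asked how these transcripts differed between naive cells lysed directly and cells after 3 h of receptor stimulation in culture. No group was cultured without stimulation. Culture and stimulation therefore cannot be told apart, here or where stimulated cells are set against anergic cells. Cdkn1a rose and Cdkn2d and Ccnd3 fell in both genotypes. The changes below are fitted log2 fold changes of counts with their standard error (SE), tested by the quasi-likelihood F test of edgeR with the chimera as a block; the adjusted p (Benjamini-Hochberg) covers all 33795 genes, and a gene was called below 0.05. In WT cells Cdkn1a rose 33.6-fold (log2 5.07, SE 0.44, adjusted p = 1.1e-08) and in DKO cells 63.2-fold (5.98, SE 0.45, adjusted p = 1.1e-09), higher in 3 of 3 chimeras each time. Cdkn2d fell by 2.65 on the log2 scale in WT (SE 0.28, adjusted p = 2.2e-07) and by 2.35 in DKO cells (SE 0.28, adjusted p = 9.5e-07). Ccnd3 fell by 0.98 (SE 0.25, adjusted p = 0.00966) and 1.20 (SE 0.25, adjusted p = 0.00133). In all, 4 of 9 genes were called in WT cells, 1 of them higher (beside 7.13% of all genes) and 3 lower (beside 4.79%). In DKO cells 5 of 9 were called, 2 higher (beside 8.34% of all genes) and 3 lower (beside 5.73%). Their median log2 fold change was -0.18 in WT and -0.55 in DKO cells, beside 0.03 and -0.36 over all genes.

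The remaining calls were made in a single genotype, which does not show a difference between genotypes. Ccnd2 rose by 1.00 in DKO cells (SE 0.28, adjusted p = 0.0154), with 0.63 in WT cells (SE 0.28, adjusted p = 0.189). Cdkn1b fell by 0.82 in DKO cells (SE 0.21, adjusted p = 0.00832), with -0.40 in WT cells (SE 0.21, adjusted p = 0.324). Cdkn2c fell by 1.39 in WT cells (SE 0.45, adjusted p = 0.0448), with -1.07 in DKO cells (SE 0.46, adjusted p = 0.147). Cdk4 was not called (0.49 in WT, adjusted p = 0.284; 0.72 in DKO, adjusted p = 0.0529). The interaction of genotype and stimulation was called for none of the 9 genes by edgeR or DESeq2 (beside 0.00296% and 0.00592% of all genes). In edgeR 1 gene (Ccnd1) was at an unadjusted p under 0.05. Without both chimera 12 libraries that stood apart, Cdkn1a (4.76), Cdkn2d (-2.99) and Ccnd3 (-1.15) kept their WT calls, while that of Cdkn2c was lost (-1.14, adjusted p = 0.103). Ccnd1 and Cdk6 were called in neither genotype with all libraries. With TMM scaling factors from well-detected genes alone, 7 genes were called in WT cells (3 higher, 4 lower). A fit of only genes with logCPM over 1 also called 7 of these genes in WT cells, beside 41.1% of the genes it tested. In DKO cells that fit called 45.1% of the genes it tested. The calls of Ccnd3 in either genotype and of Cdkn1b in DKO cells were lost without chimera 10 or without chimera 11, that of Ccnd2 without chimera 11, and that of Cdkn2c without any 1 chimera. The calls of WT Ccnd3 and DKO Cdkn1b were also lost with DESeq2's size factors within edgeR, and DESeq2 itself called neither WT Cdkn2c nor DKO Cdkn1b.

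**Figure D3:**
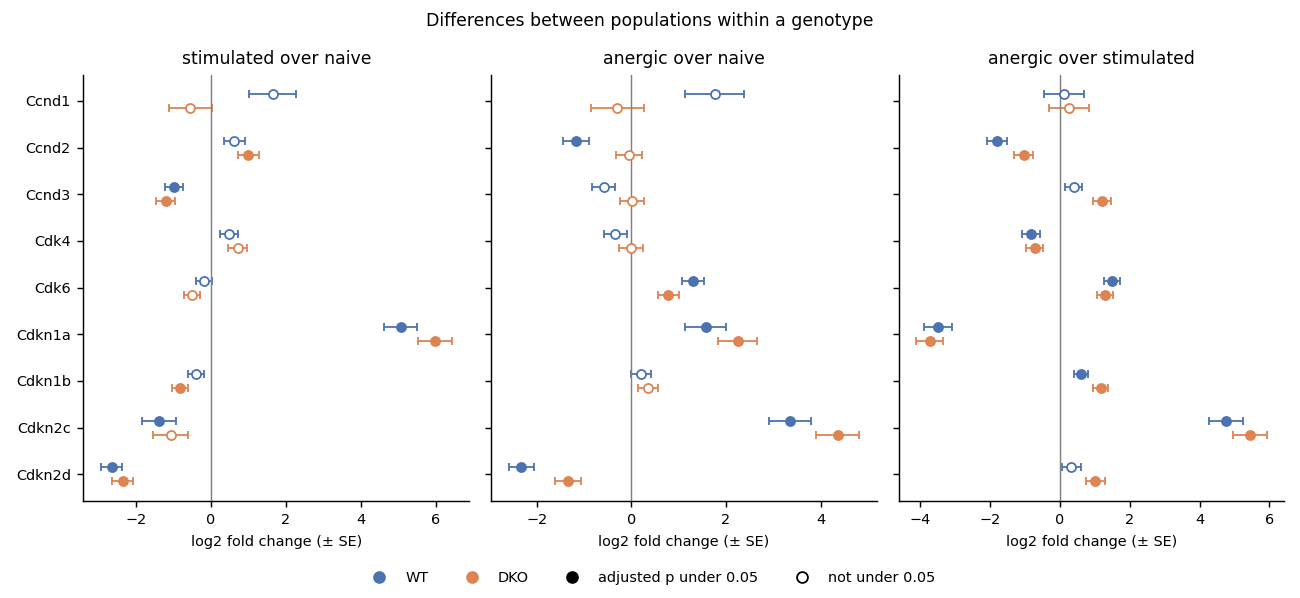
Log2 fold change with its standard error for the 9 genes in stimulated over naive, anergic over naive and anergic over stimulated cells, for WT and DKO separately, with filled points for an adjusted p under 0.05. Cdkn1a lay farthest right on stimulation (5.07 in WT, 5.98 in DKO) and Cdkn2c in the anergic comparisons (3.36 and 4.36 over naive cells).

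Anergic cells were then compared with naive cells, to ask how the gates differ within a genotype. In both genotypes Cdkn2c, Cdk6 and Cdkn1a were higher and Cdkn2d lower in anergic cells. Cdkn2c rose 10.3-fold in WT (log2 3.36, SE 0.44, adjusted p = 3.7e-06) and 20.6-fold in DKO cells (4.36, SE 0.46, adjusted p = 1.0e-07). Cdk6 rose by 1.30 (SE 0.23, adjusted p = 1.8e-04) and 0.78 (SE 0.22, adjusted p = 0.0237), and Cdkn1a by 1.57 (SE 0.43, adjusted p = 0.0178) and 2.25 (SE 0.41, adjusted p = 3.5e-04). Cdkn2d fell by 2.33 in WT (SE 0.27, adjusted p = 7.1e-07) and by 1.34 in DKO cells (SE 0.27, adjusted p = 8.6e-04). Ccnd2 fell by 1.18 in WT cells (SE 0.28, adjusted p = 0.00567), lower in 3 of 3 chimeras. In DKO cells Ccnd2 was not called, with means of 199 TPM in naive and 175 TPM in anergic cells. Ccnd1, Ccnd3, Cdk4 and Cdkn1b were called in neither genotype. Thus 5 of 9 genes were called in WT cells, 3 higher (beside 5.11% of all genes) and 2 lower (beside 4.71%), and 4 of 9 in DKO cells, 3 higher (beside 6.65%) and 1 lower (beside 2.76%). The medians were 0.20 and 0.01, beside 0.26 and -0.21 over all genes. The calls of Ccnd2 in WT and of Cdk6 in DKO cells were lost without chimera 10 or 11 (largest adjusted p over 12 alternatives 0.0886 and 0.269). That of Cdk6 in DKO cells was also lost with TMM factors from well-detected genes and with limma, and that of Cdkn1a in WT cells with DESeq2's size factors and with only the groups compared (largest adjusted p 0.198). In bulk RNA, a changed share of cells of a given state and a changed amount of RNA per cell cannot be told apart.

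Set against stimulated cells, anergic cells had more Cdkn2c, Cdk6 and Cdkn1b and less Cdkn1a, Ccnd2 and Cdk4. Cdkn2c was higher by 4.76 on the log2 scale in WT (SE 0.48, adjusted p = 4.5e-08) and by 5.44 in DKO cells (SE 0.49, adjusted p = 6.0e-09), and Cdkn1a 11.4-fold and 13.2-fold lower (-3.50, SE 0.40, adjusted p = 3.5e-07; -3.73, SE 0.39, adjusted p = 7.9e-08). Ccnd2 was lower by -1.81 in WT (SE 0.29, adjusted p = 3.8e-05) and by -1.04 in DKO cells (SE 0.28, adjusted p = 0.00847). Cdk6 was higher by 1.49 (SE 0.23, adjusted p = 2.2e-05) and 1.28 (SE 0.23, adjusted p = 1.2e-04), and Cdk4 differed by -0.83 (SE 0.25, adjusted p = 0.0176) and -0.73 (SE 0.25, adjusted p = 0.0411). By mean TPM of stimulated and anergic cells (184 and 142 in WT, 211 and 144 in DKO) the Cdk4 difference was smaller than the fitted one. Cdkn1b differed by 0.60 in WT (SE 0.21, adjusted p = 0.0495) and 1.17 in DKO cells (SE 0.21, adjusted p = 1.9e-04). In DKO cells Ccnd3 (1.21, SE 0.25, adjusted p = 8.3e-04) and Cdkn2d (1.01, SE 0.27, adjusted p = 0.00717) were also higher. In WT cells Ccnd3 (0.39, SE 0.25, adjusted p = 0.330) and Cdkn2d (0.32, SE 0.27, adjusted p = 0.460) were not called. By TPM, however, every WT anergic library was above every WT stimulated library for both genes. Calls were 6 of 9 in WT cells, 3 higher (beside 7.68% of all genes) and 3 lower (beside 12.0%), and 8 of 9 in DKO cells, 5 higher (beside 10.4%) and 3 lower (beside 7.60%), every gene but Ccnd1. With TMM factors from well-detected genes alone, 8 of the 9 were called in WT cells (5 higher, 3 lower). This was beside 23.4% of all genes, against 19.7% in the main fit. A fit of only genes with logCPM over 1 called 51.5% of them in WT and 50.2% in DKO cells. Without chimera 11, 4 were called in DKO cells. Leaving out at least 1 chimera ended the calls of Cdk4 in both genotypes, of Cdkn1b in WT cells, and of Cdkn2d, Ccnd2 and Ccnd3 in DKO cells (the last pair without chimera 11, adjusted p up to 0.193 and 0.0957). That of Cdkn1b in WT cells was also lost without the chimera block, with DESeq2's size factors, with DESeq2 and with only the groups compared. DESeq2's size factors also ended the DKO calls of Cdk4 and Cdkn2d, DESeq2 itself that of DKO Cdk4, and a fit of only the groups compared that of WT Cdk4, which was not called without both WT libraries of chimera 12 either.

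DKO and WT cells of the same hosts were compared to ask how the genotypes differed within each gate. Anergic DKO cells held more Ccnd2 than their WT counterparts, and no other of the 9 genes was called in any population. The anergic difference of Ccnd2 was 2.26-fold (log2 1.18, SE 0.28, adjusted p = 0.0298) and was seen in 3 of 3 chimeras; 1 of 9 genes was called, beside 0.879% of all genes higher and 1.34% in either direction. Anergic Cdkn1a (1.15, SE 0.38, adjusted p = 0.225), Cdkn2c (0.71, SE 0.39, adjusted p = 0.691), Cdkn2d (0.69, SE 0.26, adjusted p = 0.371) and Ccnd3 (0.52, SE 0.25, adjusted p = 0.595) had positive values in 3 of 3 chimeras and were not called, nor were Ccnd1, Cdk4, Cdk6 and Cdkn1b. The median of the 9 genes was 0.52, beside -0.03 over all genes and 0.16 over well-detected genes (logCPM over 1). A fit of well-detected genes alone called 5.56% of them. The Ccnd2 call was lost with DESeq2's size factors within edgeR (0.93, adjusted p = 0.498) and without chimera 10 or 11. The summed level of the regulatory T cell markers moved with this comparison (802 to 1076 against 90.1 to 98.4 TPM), and its part in the difference was not tested. The authors also propose that self-reactive DKO cells are spared from deletion in the thymus and gather among anergic cells. The part of such cells was not tested either.

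In stimulated cells Cdkn1a had the largest difference between genotypes of the 9 genes, 2.59-fold higher in DKO cells (log2 1.37, SE 0.36, 3 of 3 chimeras) with an adjusted p of 0.186, so it was not called. By edgeR, 2 genes (Cdkn1a and Cdkn1b) were at an unadjusted p under 0.05, and 0.216% of all genes were called. DESeq2 called none of the 9 (beside 0.321% of all genes), and limma on log2(TPM + 1) called 1 (Cdkn1a, beside 0.755%). Without both chimera 12 libraries that stood apart, edgeR called Cdkn1a (beside 0.519%). A list of 9 genes of the T cell receptor response summed to 6038 to 9891 TPM in WT and 10059 to 13668 TPM in DKO stimulated cells. The list includes the deleted Nr4a1 and Nr4a3, and reads of Nr4a1 were its largest part (means 4386 and 6519 TPM). By mean level Tnfrsf9 alone went the other way (436 TPM in WT and 88.1 TPM in DKO). The part of the receptor response in the Cdkn1a difference was not tested. In naive cells edgeR, DESeq2 and limma called none of the 9, beside 0.0947%, 0.175% and 0.148% of all genes. There edgeR had 1 gene (Ccnd1) at an unadjusted p under 0.05. The interaction of genotype and anergy was called for none by edgeR or DESeq2 (beside 0.385% and 1.16% of all genes). It was called for 1 by limma (beside 1.19%). In edgeR 3 genes (Ccnd1, Ccnd2 and Cdkn2d) were at an unadjusted p under 0.05. Ccnd2 had an interaction of 1.13 (SE 0.39, adjusted p = 0.384) and Cdkn2d of 0.99 (SE 0.37, adjusted p = 0.426).

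**Figure D4:**
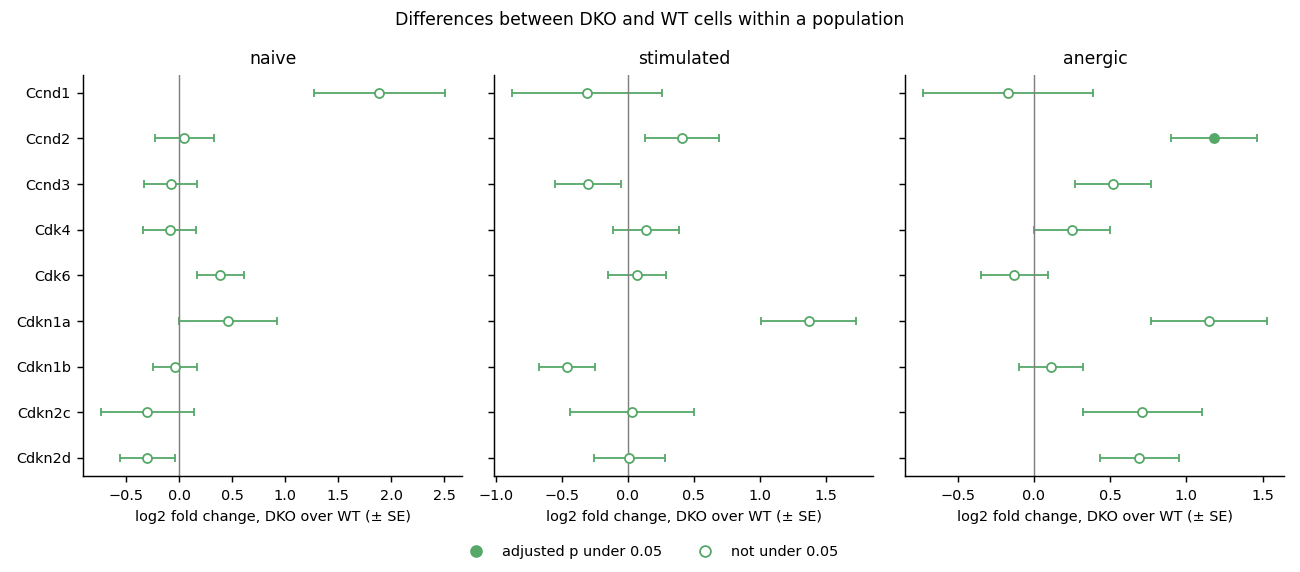
Log2 fold change, DKO over WT, with its standard error for the 9 genes in naive, stimulated and anergic cells, with filled points for an adjusted p under 0.05. The 1 filled point is Ccnd2 in anergic cells (1.18), and Cdkn1a in stimulated cells (1.37) was not called.

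The other G1 genes on a fixed list, 44 of 45 tested, moved in both directions. On stimulation, WT cells had 12 of them higher (27.3%, beside 7.13% of all genes) and 5 lower (11.4%, beside 4.79%), and DKO cells 12 higher (27.3%, beside 8.34%) and 6 lower (13.6%, beside 5.73%). Myc, which drives growth and entry into the cycle, rose by 2.54 (SE 0.31, adjusted p = 1.7e-06) in WT cells, from a mean of 183 to 884 TPM. Rb1, the retinoblastoma gene, rose (1.07, adjusted p = 5.9e-04, in WT; 1.26, adjusted p = 8.9e-05, in DKO), while its relative Rbl2 fell (-1.38, adjusted p = 1.2e-04; -1.23, adjusted p = 3.9e-04). E2f2 and Ccne1, which encodes cyclin E1, fell too (E2f2 -3.43, adjusted p = 9.9e-10, and Ccne1 -2.46, adjusted p = 7.5e-06, in WT). For anergic against naive cells the counts were 2 higher (4.55%, near the 5.11% of all genes) and 5 lower (11.4%, beside 4.71%) in WT, and 4 higher (9.09%, beside 6.65%) and 3 lower (6.82%, beside 2.76%) in DKO cells. E2f3, a factor that drives replication genes, rose in WT cells (1.91, SE 0.34, adjusted p = 2.6e-04; 1.59 to 6.80 TPM). Cdkn2b, another INK4 inhibitor, of low level, rose in both genotypes (0.609 to 5.39 TPM in WT, log2 2.88, adjusted p = 0.00247; 0.373 to 10.0 TPM in DKO, 4.83, adjusted p = 1.2e-05), as did Cdkn2c. Between genotypes, anergic DKO cells had more Klf2, a quiescence factor (log2 2.05, SE 0.27, adjusted p = 5.2e-05; mean 43.5 TPM in WT and 157 TPM in DKO), and more Ccne1 (1.40, SE 0.32, adjusted p = 0.0190; 6.64 and 14.9 TPM).

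Of 16 genes of S phase and mitosis, 9 were called higher and none lower in WT anergic over naive cells (beside 5.11% and 4.71% of all genes). In DKO cells 6 were called higher and none lower (beside 6.65% and 2.76%). Their medians were 1.40 and 0.58, beside 0.26 and -0.21 over all genes. By mean TPM these genes did not all move one way. From naive to anergic WT cells Mcm6 went from 97.4 to 308 TPM. Mcm2 (68.4 to 56.4), Mcm3, Mcm4, Mcm7 and Pcna (90.4 to 79.7) went down, and the rest of the list went up. The proliferation marker Mki67 was at 2.05 TPM in WT naive, 9.18 TPM in WT anergic, 3.80 TPM in DKO naive and 7.81 TPM in DKO anergic cells. The part of cycling cells in the higher Cdkn2c and Cdk6 of anergic cells was not tested.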

How the data were processed

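Total RNA of sorted cells was amplified (SMART-seq v4) and sequenced. Per the labels and methods, reads were trimmed by fastp, mapped to mm10 by STAR and summed per gene by featureCounts; the authors deposited raw counts and TPM. The deposited log2 fold changes and p-values of the authors' own edgeR comparisons were not used. Of 55401 entries with counts, 117 had no gene name (0.0654 to 0.136% of counts) and were left out.

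Counts were fitted in edgeR 4.0.16 (R 4.3.3): TMM scaling, filterByExpr by group, one model of 6 groups plus chimera over 18 libraries, glmQLFit and glmQLFTest, Benjamini-Hochberg over 33795 genes, 0.05 as threshold. SE is the log2 fold change divided by the root of F. Levels are deposited TPM, mean ± SD. WT and DKO libraries with one chimera number come from one host, which gives the pairing; residuals of same-chimera libraries correlated with a median of -0.0109 (45 pairs) and those of different chimeras with 0.00316 (90 pairs). No pair of libraries within a group (18 pairs) differed by less than sampling noise, and pairs across groups were not checked. DESeq2 1.42.0 and limma 3.58.1 served as alternatives, beside scaling, filters and left-out libraries. The fitting step was tested on simulated data for DKO over WT anergic cells. The changed genes were drawn from those with logCPM over 1, and no other group difference and no chimera effect was put in. Of these changed genes, 25.0% with a true log2 change of 1 and 82.0% with 2 were called. The rates do not cover sparser genes such as Ccnd1. A gene not called may therefore still differ.

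Members and lists were chosen with earlier results of these data known. The rule for named genes took all 9 genes in each comparison, up to 4 genes of each other G1 list with the smallest adjusted p, of which examples are given, and the 3 genes most like each member, save a gene that is not reported here. Upstream sequences are RefSeq's (GRCm38.p6).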

Additional observations from a re-analysis of the deposited data

Results flagged for a closer look

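By TPM, the DKO minus WT difference of Ccnd3 and of Ccnd1 took opposite directions in a pair of populations in every chimera, which no other of the 9 genes did. For Ccnd3 the mean difference over 3 chimeras was -7.71 TPM in stimulated cells, negative in 3 of 3, and 19.5 TPM in anergic cells, positive in 3 of 3. On the count scale with TMM scaling the stimulated difference was negative in 2 of 3 chimeras, neither difference was called, and the difference between these populations was not tested. For Ccnd1, at 2 to 32 counts per library, it was 0.451 TPM in naive cells and -0.158 TPM in anergic cells. Its interaction of genotype and anergy was not called (edgeR's quasi-likelihood test, adjusted p = 0.451), and on the count scale the anergic difference was negative in 2 of 3 chimeras.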

How the results depend on the processing

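The 33 values called for the 9 genes kept their sign in 396 of 396 alternatives and were called again in 350. Of 53 further values, with 624 alternatives, 73 alternatives had the other sign and none of those was called; 15 others were called with the same sign. The remaining 13 values, printed though not called, kept their sign in 156 of 156 alternatives and were called in 45, Cdk4 in DKO stimulated over naive cells in 10 of 12. Genes called in WT stimulated over naive cells numbered 4, but 7 among genes with logCPM over 1 and 7 (3 higher, 4 lower) with TMM factors from those genes, and 2 to 4 with 1 chimera left out. With 1 chimera left out the count was 2 to 7 for DKO stimulated over naive cells (5 with all chimeras) and 4 to 8 for DKO anergic over stimulated cells (8). For DKO over WT stimulated cells the count was 0 (0.216%). It became 1 (Cdkn1a) without the low-count filter (0.254%), among genes with logCPM over 1 (1.27%) and with TMM factors from those genes (0.530%). It was also 1 with only the groups compared (0.782%), without both chimera 12 libraries that stood apart (0.519%) and with limma on log2(TPM + 1) (0.755%). With 1 chimera left out it was 0 to 1 (0.0686% to 0.561%). For DKO over WT anergic cells, 1 (1.34%) became 0 with DESeq2's size factors (1.18%), 2 without the filter (1.31%) and 5 with only the groups compared (5.50%). It became 3 without both chimera 12 libraries (4.53%), 2 with limma (3.07%), and 0 to 2 with 1 chimera left out (0.369% to 7.92%). For the interaction of genotype and anergy, 0 (0.385%) became 2 without the filter (0.938%) and 1 with only the groups compared (0.695%). It became 1 with limma (1.19%), and 0 to 1 with 1 chimera left out (0.0343% to 2.78%). The causes were not tested.

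Without the replicate block (the pairing by chimera) the counts in WT and DKO were 4 and 6 for stimulated over naive cells (beside 12.4% and 14.4% of all genes). They were 5 and 4 for anergic over naive cells (9.93% and 9.58%) and 5 and 8 for anergic over stimulated cells (20.2% and 18.1%). For DKO over WT anergic cells the count was 1 (1.36%). Cdk4 was then called in DKO stimulated over naive cells and Cdkn1b no longer in WT anergic over stimulated cells. The block changed no other call.

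Scaling moved the median of all genes by over 0.1: with DESeq2's size factors it was 0.02 instead of 0.25 for DKO over WT naive cells, and with TMM factors from genes with logCPM over 1 it was -0.16 instead of -0.03 for DKO over WT anergic cells. Precision is limited by 3 hosts per group and, for Ccnd1, by 2 to 32 counts.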

Other observations

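Over the 18 libraries, the profiles most like those of the 9 genes, among 15059 well-detected genes and by Pearson correlation of log2 CPM (counts scaled to library size), were those of Egr1 (0.979), Gfod1 (0.978) and Cd274 (0.977) for Cdkn1a, Supt3 (0.988), Pdlim7 (0.985) and Matk (0.978) for Cdkn2c, and Anxa6 (0.991), Grk6 (0.986) and Idh2 (0.986) for Cdkn2d. For Ccnd2 they were Mtap (0.973), Mthfd1 (0.970) and Mbp (0.968), for Ccnd3 Txndc15 (0.976) and Zfp710 (0.973), and for Cdk4 Clp1 (0.988), Myl12a (0.986) and Vdac2 (0.984). Cdk6 was most like Racgap1 (0.965), a gene of cytokinesis, Mctp1 (0.964) and Zfp870 (0.961), and Cdkn1b most like Sdccag8 (0.956), Fbxl8 (0.949) and Arid3a (0.948). The highest value for the sparse Ccnd1 was 0.765 (H2-M9). Among the 9 genes themselves the value was 0.90 for Ccnd2 with Cdk4, 0.83 for Ccnd3 with Cdkn2d and -0.78 for Ccnd2 with Cdk6. The libraries share 3 hosts and 6 groups, so these values describe the group pattern and are not independent.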
